A study of Mus musculus with 16 samples.

Results

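Of the 16 bead arrays of the study, 3 were set against the other arrays of their own siRNA: BICC1_3 replicate 1, BICC1_1 replicate 3 and BICC1_2 replicate 3. They were picked because their ribosomal protein and mitochondrial transcripts were low, so the values below describe those arrays and carry no p-value. RNA came from primary osteoblasts of the skull vault of C57BL6/J mice of mixed gender, aged 3 to 9 days. The cells had been transfected by Lipofectamine 2000 with a scrambled siRNA (SC) or with BICC1_1, BICC1_2 or BICC1_3, siRNAs against Bicc1, which encodes an RNA-binding protein. RNA was taken 48 hours later, with 4 arrays for each of the 4 transfections. Whether replicates came from different cultures or different mice is not given in the labels, which also name no batch. The comparison used 12 siRNA arrays, the 3 picked ones and their 9 mates, and each SC array was set against the other 3 SC arrays as an array that nobody had picked.

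Cytosolic ribosomal proteins form the ribosome that translates nuclear mRNAs, and their mRNAs are among the most abundant and most stable of a growing cell. Most subunits of the respiratory chain are also encoded in the nucleus, and many are very small proteins with short mRNAs. They join catalytic core subunits, some of which are encoded in the mitochondrial genome, to form complexes I, III and IV, which pump protons, and the ATP synthase, which uses the resulting gradient to make ATP. The mRNAs of the clustered histone genes are also short, and in mammals they end in a stem-loop in place of a poly(A) tail.

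Each value is a log2 intensity after background correction and quantile normalisation. The deviation of an array is its value minus the mean of the unpicked arrays of the same transfection, and the block difference of a gene is the mean deviation of the 3 arrays. A gene was called low when it lay below all 3 mates on each of the 3 arrays with a block difference of -0.3 log2 or lower, and high by the mirrored rule. By this rule 840 of 9560 genes (8.79%) were low and 619 (6.47%) were high. Median scaling in place of quantile normalisation gave 1070 low and 350 high genes, and the uncorrected, unnormalised log2 intensity gave 81 and 547. In that last scale the median of all genes stood 0.12 log2 below the mates on BICC1_3 replicate 1 but 0.13 and 0.23 above them on BICC1_1 replicate 3 and BICC1_2 replicate 3, so directions below are relative to the other genes of an array.

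The size of the departure differed between the 3 arrays. On BICC1_3 replicate 1 alone, 2108 genes (22.1%) lay at least 0.3 log2 under the mean of the mates and below each of them, against 1515 (15.8%) on BICC1_1 replicate 3 and 716 (7.49%) on BICC1_2 replicate 3. Upward the same measure gave 1841 (19.3%), 1306 (13.7%) and 443 genes (4.63%). For the 4 SC arrays it gave 183 to 266 genes downward (1.91%, 2.5%, 2.63% and 2.78%) and 172 to 254 upward (1.8%, 2.22%, 2.35% and 2.66%). The standard deviation of the deviations over genes was 0.48, 0.34 and 0.20 log2 in the same order, against 0.14 to 0.19 on the other 13 arrays. BICC1_2 replicate 3 was therefore only just outside the unpicked arrays by this measure. Leaving it out raised the counts to 1483 low and 1223 high genes, since the calls then rested on the other two arrays. In signal, the arrays were not dimmer: their median intensities of 91.0 to 109 lay within the 84.8 to 111 of the others, and 12863 probes were detected on BICC1_3 replicate 1, more than the 11990 to 12538 of the unpicked arrays.

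Deviations of single genes were shared between the 3 arrays. Across the 9560 genes, Pearson's r was 0.70 between BICC1_3 replicate 1 and BICC1_1 replicate 3, 0.61 between BICC1_1 replicate 3 and BICC1_2 replicate 3, and 0.36 between BICC1_3 replicate 1 and BICC1_2 replicate 3. These arrays share no mates, since each belongs to another siRNA. Pairs from different transfections with neither array picked gave -0.37 to 0.33 over 63 pairs. Genes are not independent replicates, and the arrays were picked for transcripts that are part of these correlations.

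**Figure D1:**
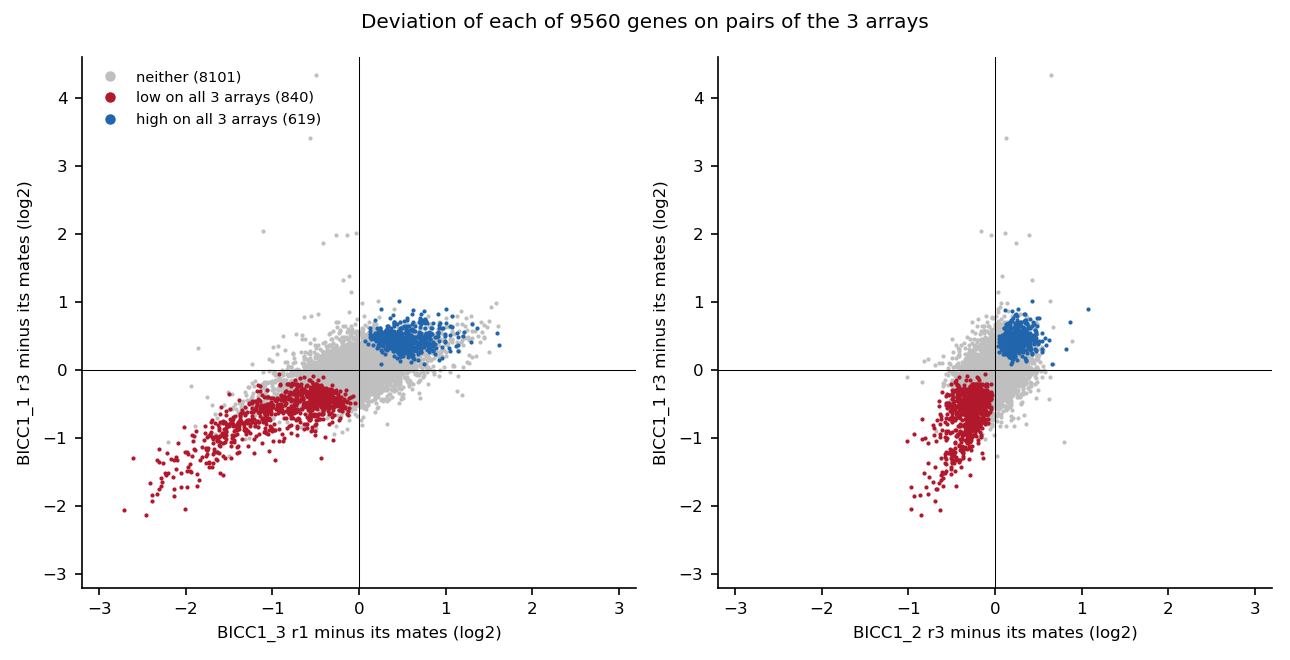
Deviation of each of 9560 genes from its siRNA mates, in log2, on BICC1_3 replicate 1 (left, x axis) or BICC1_2 replicate 3 (right, x axis) against BICC1_1 replicate 3 (y axis), with "r" for replicate. Red points are the 840 low genes and blue points the 619 high genes. The low genes reach farther from 0 than the high genes, and the spread along the x axis is wider on the left than on the right.

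Bicc1 itself, read by 1 probe, was higher on the 3 arrays than on every mate. It was 10.70 log2 on BICC1_3 replicate 1 against 10.39, 10.39 and 10.33 on the mates, 9.88 on BICC1_1 replicate 3 against 9.51, 9.81 and 9.42, and 9.27 on BICC1_2 replicate 3 against 8.87, 9.04 and 8.69. The block difference was 0.34 log2 (SE 0.09), or 127% of the mates. SC arrays ranged from 10.38 to 10.66, so the arrays labelled BICC1_3 overlapped SC with or without the picked array. Without its picked array, Bicc1 stood at 51.0% of SC for BICC1_1 and 31.1% for BICC1_2, against 53.7% and 33.3% with it.

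Low classes were those of the ribosome and the respiratory chain, by which the arrays were picked, and also mitochondrial import, RNA polymerase subunits and histones. In 42 classes with at least 5 measured genes, 7 had a median deviation on each of the 3 arrays below that of all 13 other arrays. These were cytosolic ribosomal proteins, complex I, complexes III and IV, ATP synthase, mitochondrial protein import, RNA polymerase subunits and histones. In 5 classes the medians lay above all 13. In 4 classes 1 picked array lay below all 13 and 1 above. In the other 26 at least 1 of the 3 overlapped the others. Without BICC1_3 replicate 1 the median block differences of ribosomal proteins, complex I, ATP synthase, import and histones stood at -0.22, -0.50, -0.35, -0.13 and -0.25, in place of -0.41, -0.78, -0.64, -0.24 and -0.43. Of the 89 named genes that were low or high, 17 moved by over 1.5 times without that array, and 0 without any other. The way of sorting classes was chosen after the values were seen.

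**Figure D2:**
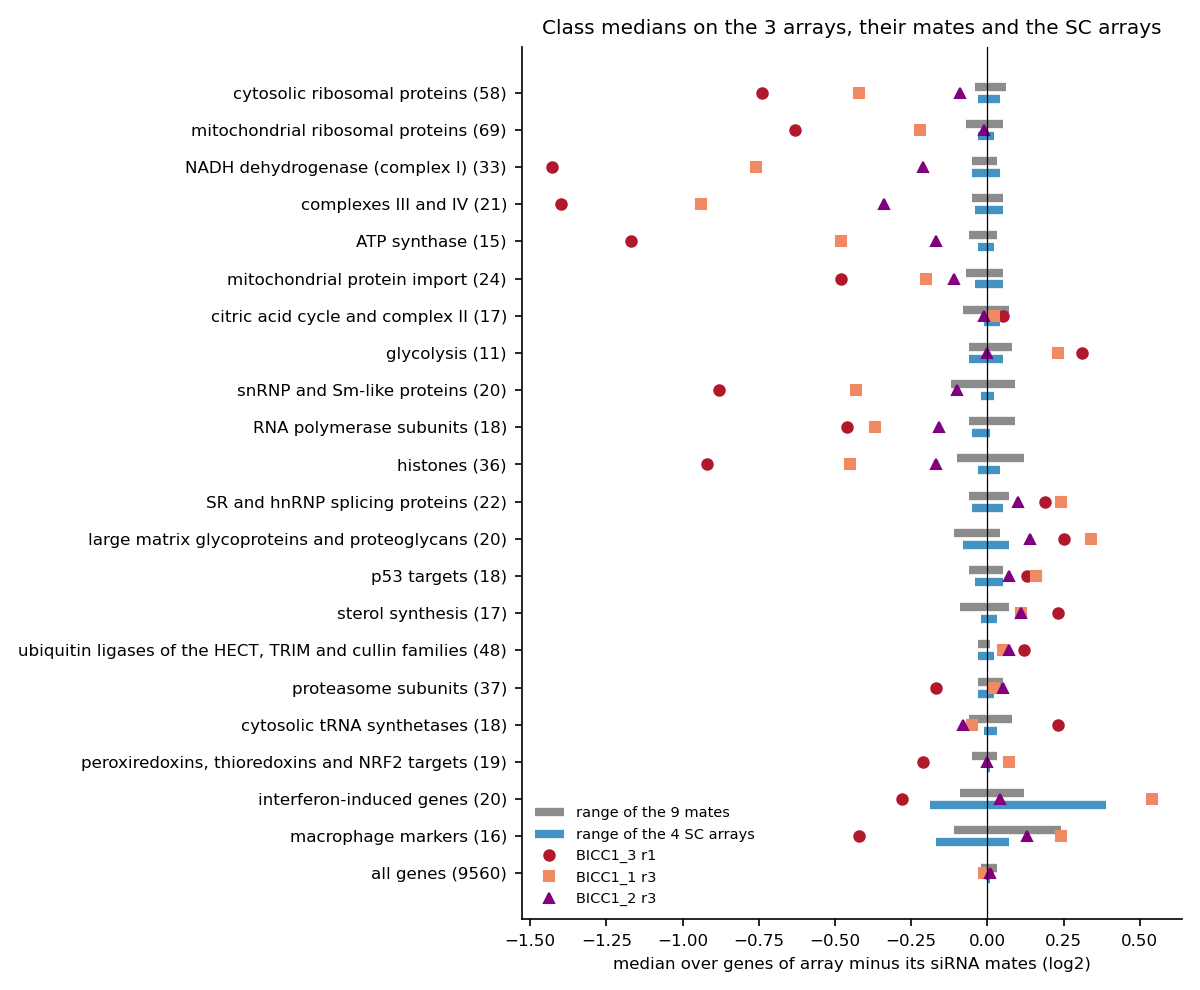
Median over the genes of a class (number measured in brackets) of the deviation from the siRNA mates, in log2. Red circles, orange squares and purple triangles are the 3 arrays, grey bars span the 9 mates and blue bars the 4 SC arrays. The cytosolic ribosomal, respiratory and histone classes lie left of the bars in the order BICC1_3 replicate 1, BICC1_1 replicate 3, BICC1_2 replicate 3. For mitochondrial ribosomal proteins the order is the same, but the triangle, at -0.01, lies within the grey bar. The high classes lie much nearer 0.

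Among cytosolic ribosomal proteins the median deviation of 58 genes was -0.74 on BICC1_3 replicate 1, -0.42 on BICC1_1 replicate 3 and -0.09 on BICC1_2 replicate 3. The other arrays ranged from -0.04 to 0.06, so the last of the 3 was the nearest array inside the choice. The class was uneven: 28 members (48.3%) were low and 0 were high, and the block differences ran from -0.99 to 0.25. Rps26, a protein of the small subunit, was lowest, at 13.52 against 15.06, 14.93 and 14.89 with BICC1_3, 13.86 against 14.85, 14.98 and 14.93 with BICC1_1, and 14.54 against 15.06, 14.99 and 14.95 with BICC1_2. No picked array overlapped its mates for this gene, and the block difference of -0.99 (SE 0.13) left 50.5% of the mates' intensity. Rps15, also of the small subunit, stood at -0.95 (SE 0.17), and at -0.60 without BICC1_3 replicate 1. Rpl12, of the large subunit and nearest the class median, was 13.58 on BICC1_3 replicate 1 and 14.01 on BICC1_1 replicate 3, below their mates, but 14.39 on BICC1_2 replicate 3, within the 14.30 to 14.48 of its mates.

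Of the 58 block differences 48 lay below 0 and 10 above. Rpl3, a large-subunit protein near the catalytic centre, was 14.75, 14.53 and 14.38 on the 3 arrays in the order named at the start, each above its mates, with a block difference of 0.25 (SE 0.08). Rpl41, the smallest ribosomal protein, had a block difference of 0.08 (SE 0.08), and Rpl4 one of -0.18 (SE 0.07). Rpl5, Rps4x and Rpl27a had 0.08, 0.11 and 0.15. Some listed members are paralogs of a ribosomal protein, and of these Rpl22l1, Rpl39l and Rps27l were low at -0.93, -0.62 and -0.61.

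Ribosomal protein mRNAs begin with a run of pyrimidines after the cap, the 5′ terminal oligopyrimidine motif, which couples their translation to growth signals. The following sequences are shown because they place low ribosomal mRNAs beside high mRNAs that also carry the searched letters near their start. Each runs 5′ to 3′ from 10 bases before to 50 bases after the RefSeq start (GRCm38.p6), with the letters CTCTT in capitals.
Rps26, chr10:128626457-128626516, minus strand: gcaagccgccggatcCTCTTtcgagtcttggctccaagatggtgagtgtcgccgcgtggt
Fau, chr19:6057937-6057996, plus strand: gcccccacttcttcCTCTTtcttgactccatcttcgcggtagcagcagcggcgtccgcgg
Rpl38, chr11:114668570-114668629, plus strand: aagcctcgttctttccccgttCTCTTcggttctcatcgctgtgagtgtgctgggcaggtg
Eef2, chr10:81176621-81176680, plus strand: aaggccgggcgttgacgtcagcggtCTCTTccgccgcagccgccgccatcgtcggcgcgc
Vim, chr2:13574301-13574360, plus strand: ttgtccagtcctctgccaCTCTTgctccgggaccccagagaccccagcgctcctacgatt
Letters CTCTT, chosen after the values were seen and searched in the 50 bases after the start on both strands, were found on the gene's strand for 6.52% of all 32851 starts in the table and on the other strand for 7.52%. Of the 58 ribosomal protein genes 50 matched the table, and 19 of them (38.0%) held the letters on their strand. The median block difference was -0.52 for those and -0.40 for the ribosomal genes without them. A list of 13 oligopyrimidine mRNAs outside the ribosome, formed after the values were seen, held translation factors and Vim. Its median block difference was 0.20, with 5 high and 0 low. On the 3 arrays its medians were 0.39, 0.25 and 0.10, the last within the -0.08 to 0.16 of the mates. Of the 8 listed genes that matched the table, 3 held the letters. Among low genes 6.93% held the letters, among high genes 7.11%. Eef2, the elongation factor that moves the ribosome along the mRNA, was 13.22 against 11.51, 12.21 and 12.08 on BICC1_3 replicate 1, 11.98 against 11.91, 11.17 and 11.63 on BICC1_1 replicate 3, and 11.65 against 11.61, 11.42 and 11.63 on BICC1_2 replicate 3. It met the high rule with a block difference of 0.60 (SE 0.21) from deviations of 1.29, 0.41 and 0.10, but the margin over the highest mate was small on the last 2 arrays named.

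Mitochondrial ribosomal proteins, which translate the mitochondrial genome, had median deviations of -0.63, -0.22 and -0.01 over 69 genes. The last value lay within the -0.07 to 0.05 of the mates, although the 3 arrays had been picked partly on mitochondrial transcripts. Of the members, 18 (26.1%) were low and 0 high. Mrpl52, of the large mitochondrial subunit, was lowest, with a block difference of -1.52 (SE 0.19), and Mrps21, of the small one, had -1.39 (SE 0.18). Mrpl1 stood farthest on the other side at 0.17 (SE 0.08).

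The deepest deficit of the classes was in the respiratory chain. Complex I, the NADH dehydrogenase, had medians of -1.43, -0.76 and -0.21 over 33 genes, against -0.05 to 0.04 on the other 13 arrays, and 19 members (57.6%) were low. Ndufa3, a small accessory subunit, was 11 against 13.07, 13.02 and 12.95 on BICC1_3 replicate 1. On BICC1_1 replicate 3 it was 11.05 against 13.13, 13.12 and 13.02, and on BICC1_2 replicate 3 it was 12.15 against 13.15, 13.15 and 13.06. Its deviations of -2.01, -2.04 and -0.97 therefore put the first 2 arrays level, unlike the class median. The block difference was -1.68 (SE 0.15), and 31.3% of the mates' intensity remained. Ndufb6, an accessory subunit nearest the class median, had -1.45, -0.69 and -0.21, so its block difference of -0.78 became -0.45 without BICC1_3 replicate 1.

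Within the complexes the core genes lay closer to the mates than the other subunits did. The 5 measured core subunits of complex I had a median block difference of -0.27, the 28 accessory subunits one of -0.86. Of the core subunits 4 had block differences below 0, down to -0.58, and 1 was low. Their medians on the 3 arrays were -0.67, -0.20 and -0.04, against -0.03 to 0.04 on the mates. Ndufv1, which binds NADH, was the only core subunit above 0, at 0.03 (SE 0.07). Ndufa10, one of the larger accessory subunits, stood at 0.18 (SE 0.07). In complexes III and IV the medians were -1.40, -0.94 and -0.34 over 21 genes and 16 (76.2%) were low. The core proteins Uqcrc1 and Uqcrc2 and cytochrome c1 (Cyc1) had 0.13, 0.28 and -0.11, and the other 18 genes had a median of -0.95. Cox7b, a small subunit of complex IV, was 5.54 against 8.15, 8.37 and 7.91 on BICC1_3 replicate 1, 6.72 against 7.90, 7.92 and 8.24 on BICC1_1 replicate 3, and 7.60 against 7.94, 7.93 and 8.05 on BICC1_2 replicate 3. Its block difference was -1.42 (SE 0.28), and -0.83 without BICC1_3 replicate 1. Uqcr11, a small subunit of complex III, had a block difference of -1.33 (SE 0.17). These subgroups were formed after the values were seen and are given with no test.

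ATP synthase repeated the division. Its 15 genes had medians of -1.17, -0.48 and -0.17, and 10 (66.7%) were low. The genes of the alpha, beta and gamma subunits, which make up the catalytic head and its shaft, had block differences of -0.08 (Atp5a1), 0.03 (Atp5b) and 0.06 (Atp5c1). The other 12 had a median of -0.75. Atp5e, the epsilon subunit and a very small protein, was 5.94, 6.72 and 7.84 on the 3 arrays, where the 9 mates lay between 8.19 and 8.68. Its block difference was -1.58 (SE 0.23), and Atp5pb, a stalk subunit, stood farthest on the other side at 0.28 (SE 0.08).

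**Figure D3:**
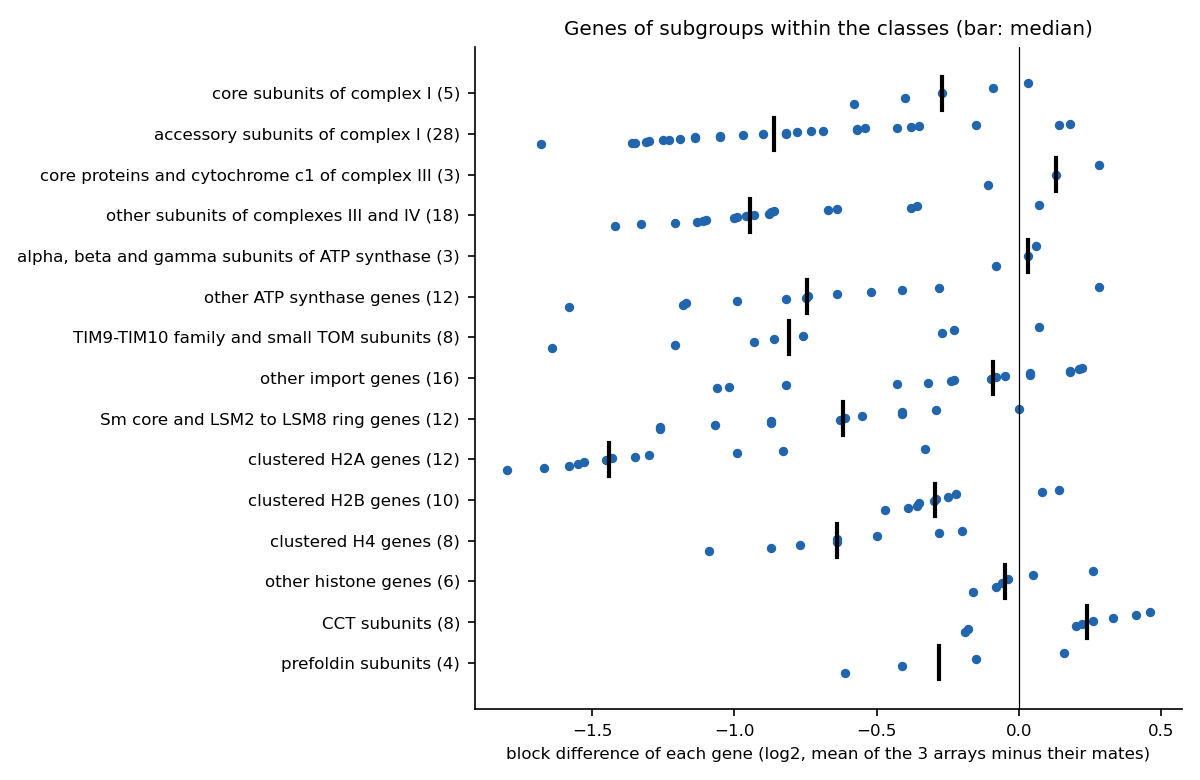
Block difference of each gene, in log2 (mean of the 3 arrays minus their mates), for subgroups within the classes, with the number of genes in brackets and a black bar at the median. Core genes of complexes I and III and of ATP synthase lie closer to 0, with medians of -0.27, 0.13 and 0.03, than the other subunits, of which the lowest reaches -1.68. Clustered H2A genes lie farthest left of the histones.

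Some other mitochondrial classes overlapped the unpicked arrays. Citric acid cycle and complex II genes, which feed electrons to the chain, had medians of 0.05, 0.02 and -0.01 over 17 genes, with 1 low (Mdh2, malate dehydrogenase, -0.37) and 1 high (Pdha1, of pyruvate dehydrogenase, 0.34). Solute carriers of the inner membrane had 0.02, 0.03 and 0.04 over 28 genes. Protein import genes, by contrast, had -0.48, -0.20 and -0.11 over 24 genes, against -0.07 to 0.05 on the mates, and 8 (33.3%) were low. They too were divided: 8 genes of the TIM9-TIM10 chaperones and small TOM subunits had a median of -0.81, and the other 16 one of -0.09. Tomm7, a small subunit of the outer-membrane translocase, stood at -1.64 (SE 0.15) and Tomm70a, a large receptor subunit, at 0.22 (SE 0.13). Tomm70a met neither rule, since its 7.78 on BICC1_1 replicate 3 lay within the 7.44 to 8.06 of its mates. Whether the size of a protein goes with its block difference was not tested. Glycolysis genes leaned the other way, with 0.31, 0.23 and 0.00 over 11 genes, but 0 of them were high and the median block difference of 0.28 became -0.01 with median scaling.

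Histones were low on all 3 arrays, chiefly through the H2A genes. The class medians were -0.92, -0.45 and -0.17 over 36 genes, against -0.10 to 0.12 on the mates, and 17 (47.2%) were low. The 12 clustered H2A genes had a median block difference of -1.44, with -2.22, -1.52 and -0.60 on the 3 arrays, and 11 of them were low. The 8 clustered H4 genes had -0.64, the 10 clustered H2B genes -0.30 and the 6 other histone genes -0.05. H2ac12 was 9.69 against 12.08, 11.94 and 11.98 on BICC1_3 replicate 1, 10.40 against 12.03, 12.36 and 12.05 on BICC1_1 replicate 3, and 11.49 against 12.33, 12.28 and 11.90 on BICC1_2 replicate 3. H2B genes were low mainly on BICC1_3 replicate 1, where their median was -0.81 against -0.06 and -0.01 on the other two. Clustered histone genes are near-identical copies, so probes may read more than 1 of them and the members are not separate measurements. The cell cycle genes measured beside them had medians of 0.05, -0.06 and -0.03 over 27 genes. Of them 1 was low and 2 were high (3.7% and 7.41%, against 8.79% and 6.47% of all genes).

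Splicing proteins divided into low and high groups. The snRNP and Sm-like class, whose small proteins form rings around spliceosomal or cytoplasmic RNAs, had medians of -0.88, -0.43 and -0.10 over 20 genes, and the last value overlapped the -0.12 to 0.09 of the mates. Of these, 9 (45.0%) were low and 1 was high. Lsm7 and Snrpg both had a block difference of -1.26 (SE 0.23 and 0.20), and Lsm7 stood at -0.81 without BICC1_3 replicate 1. Lsm14b, a larger protein that acts in mRNA storage granules, was the high member at 0.39 (SE 0.07), with 0.07 and 0.33 by its other probes. The SR and hnRNP proteins, which bind pre-mRNA along its length, had 0.19, 0.24 and 0.10 over 22 genes, against -0.06 to 0.07 on the other arrays, with 4 high and 0 low. With median scaling their block median was 0.03 in place of 0.20. Hnrnpa1 was 11.19 on BICC1_3 replicate 1 against 9.79 to 10.35 on its mates, but its second probe gave a block difference of 0.09 where the brighter probe gave 0.64, and 0.42 without BICC1_3 replicate 1.

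RNA polymerase subunits had medians of -0.46, -0.37 and -0.16 over 18 genes, with 9 low and 1 high. Polr2i, of polymerase II, was lowest in the class at -1.19 (SE 0.16), and Polr2k, shared by all 3 polymerases, followed at -1.07 (SE 0.18). Polr2e, another subunit shared by the polymerases, was 9.83, 10.06 and 9.86 on the 3 arrays against 9.32 to 9.58 on the 9 mates. It was thus high, with a block difference of 0.47 (SE 0.07). The largest subunit of polymerase I, Polr1a, was low at -0.30.

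Of single genes, Dpm3 had the lowest block difference of all. Dpm3, which anchors the dolichol-phosphate mannose synthase, was 8.30 against 10.83, 10.76 and 10.67 on BICC1_3 replicate 1, 8.62 against 10.65, 10.83 and 10.76 on BICC1_1 replicate 3, and 9.89 against 10.82, 10.75 and 10.64 on BICC1_2 replicate 3. That is -1.81 (SE 0.21), or 28.5% of the mates. Bola2, which helps to deliver iron-sulfur clusters, followed at -1.70 (SE 0.19) and Anapc13, of the anaphase-promoting complex, at -1.56 (SE 0.14). The 12 lowest genes also held Ndufa3, Tomm7, Atp5e, the predicted gene Gm1673 (-1.64) and the histone genes H2ac11, H2ac21, H2ac12, H2ac10 and H2ac22. The 12 were taken from genes that met the low rule, so each picked array lay below each of its mates by definition. Outside the classes named so far, Sec61b, of the translocon in the endoplasmic reticulum, stood at -1.01 (SE 0.23), Mgp, the matrix inhibitor of calcification, at -0.90 (SE 0.16), and the antioxidant genes Txn1 and Sod1 at -0.86 (SE 0.16) and -0.74 (SE 0.14). A second probe of Txn1 gave -0.26. Without BICC1_3 replicate 1, Sec61b stood at -0.51, Mgp at -0.58, Txn1 at -0.53 and Sod1 at -0.49.

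High genes departed less. Their median block difference was 0.39 with a largest value of 0.99, against -0.51 and -1.81 for the low genes. Ahcy, which breaks down S-adenosylhomocysteine, led them, at 7.77, 7.74 and 7.61 on the 3 arrays against 6.36 to 7.08 on the 9 mates. Its block difference was 0.99 (SE 0.11), or 199% of the mates, and its deviation was largest on BICC1_2 replicate 3. Thbs1, the matrix protein thrombospondin-1, followed at 0.80 (SE 0.21) with deviations of 1.59, 0.54 and 0.27, and stood at 0.40 without BICC1_3 replicate 1. Vim, the intermediate filament protein of mesenchymal cells, was 15.03 against 13.75, 14.06 and 14.06, 14.58 against 13.90, 13.77 and 13.71, and 14.08 against 13.72, 13.90 and 13.85. That gave 0.71 (SE 0.12).

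The other 9 of the 12 highest were Eif4g2 (0.75), a translation initiation factor, Rsf1 (0.74), of a chromatin remodelling complex, Man1a (0.73), a Golgi mannosidase, Mex3c (0.69), an RNA-binding ubiquitin ligase, and Strn3 (0.69), a striatin. They also held Nckap1 (0.68), of the actin-regulating WAVE complex, Zfp148 (0.65), a zinc finger transcription factor, Slc33a1 (0.65), an acetyl-CoA carrier, and Ccne2 (0.65), a cyclin. Slc33a1 ran against the more frequent order, with deviations of 0.40, 0.70 and 0.87, and Zfp148 had 0.71, 0.76 and 0.49. Without BICC1_3 replicate 1, Eif4g2 stood at 0.31, Mex3c at 0.36 and Nckap1 at 0.42. A second probe of Eif4g2 gave 0.26.

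**Figure D4:**
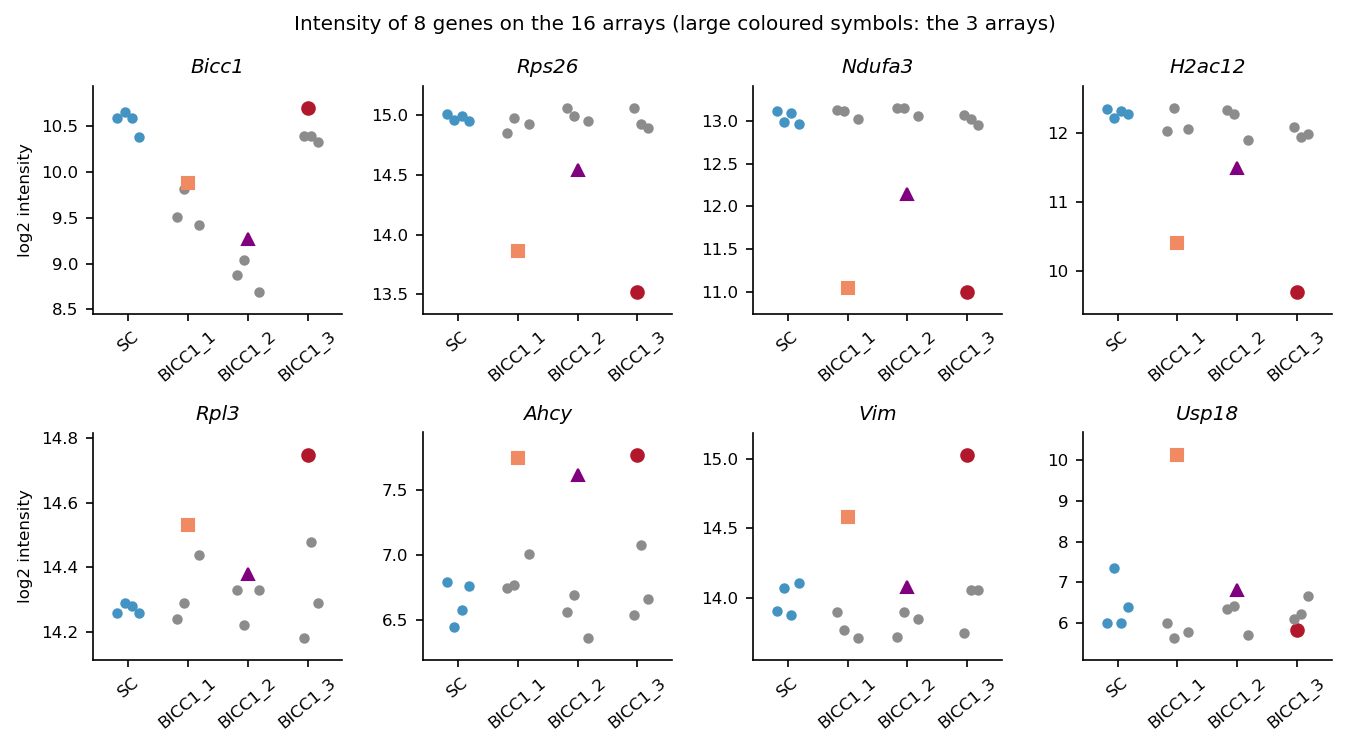
Log2 intensity of 8 genes on all 16 arrays by transfection, with 1 point an array. Red circle, orange square and purple triangle are BICC1_3 replicate 1, BICC1_1 replicate 3 and BICC1_2 replicate 3, grey points their mates and blue points the SC arrays. The y axes differ and do not start at 0. Rps26, Ndufa3 and H2ac12 lie below the mates on all 3 arrays, Bicc1, Rpl3, Ahcy and Vim above them, and Usp18 stands out on BICC1_1 replicate 3.

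High classes, by their medians alone, were the SR and hnRNP proteins, large matrix glycoproteins and proteoglycans, p53 targets, sterol synthesis and ubiquitin ligases. With median scaling, 0 of these 5 classes stood above all other arrays. On BICC1_2 replicate 3 few members lay above each mate and at least 0.3 log2 over their mean. These were 0, 4, 1, 0 and 2 in the order named, while 0, 0, 2, 0 and 7 lay below by the mirrored measure. Of all genes, 4.63% lay above and 7.49% below on that array. Matrix genes had medians of 0.25, 0.34 and 0.14 over 20 genes, with 7 (35.0%) high and 0 low. The laminin genes Lamb1 and Lamc1 of the basement membrane both had 0.37, Tnc, tenascin, 0.37, and Ltbp1, which stores latent TGF-beta, 0.41. With median scaling the block median of the class was 0.07 in place of 0.21. Collagens, by contrast, had 0.22, 0.13 and 0.01 over 19 genes, within the -0.15 to 0.20 of the mates on 2 of the 3 arrays.

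Sterol synthesis had 0.23, 0.11 and 0.11 over 17 genes, with 3 high: Msmo1 (0.47), Cyp51 (0.46) and Sqle (0.41), enzymes that lie near each other in the pathway. P53 targets had 0.13, 0.16 and 0.07 over 18 genes, with Zmat3 (0.41) and Phlda3 (0.32) high, and the block median of 0.13 became -0.01 with median scaling. Ubiquitin ligases of the HECT, TRIM and cullin families had 0.12, 0.05 and 0.07 over 48 genes, with 4 low and 7 high (8.33% and 14.6%, against 8.79% and 6.47% of all genes).

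In 4 classes 1 of the 3 arrays lay below all 13 others and 1 above, in part by narrow margins. Proteasome subunits had medians of -0.17, 0.02 and 0.05, against -0.03 to 0.05 on the mates. For tRNA synthetases they were 0.23, -0.05 and -0.08, against -0.06 to 0.08. Peroxiredoxin, thioredoxin and NRF2 target genes had -0.21, 0.07 and 0.00, against -0.05 to 0.03. The interferon-induced genes differed most: their medians were -0.28 on BICC1_3 replicate 1, 0.54 on BICC1_1 replicate 3 and 0.04 on BICC1_2 replicate 3. On BICC1_1 replicate 3, 12 of 20 interferon-induced genes lay above each mate and at least 0.3 log2 over their mean, against 13.7% of all genes, and 2 below. On BICC1_3 replicate 1, 9 of 20 lay below each mate and at least 0.3 log2 under their mean, against 22.1% of all genes, and 1 above. BICC1_2 replicate 3 had 1 below and 3 above. Usp18, which restrains interferon signalling, was 10.14 on BICC1_1 replicate 3 against 6.00, 5.62 and 5.78 on its mates, 5.82 on BICC1_3 replicate 1 against 6.09, 6.21 and 6.66, and 6.80 on BICC1_2 replicate 3 against 6.34, 6.42 and 5.71. Ifit3, an antiviral protein that interferon induces, was 9.60 on BICC1_1 replicate 3 against 6.41, 5.80 and 6.38.

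Some of this spread is seen where no array was picked, since the class median ranged from -0.19 to 0.39 over the SC arrays and Usp18 from 5.99 to 7.36. Irgm1, a GTPase induced by interferon, behaved like the low genes instead, at 12.70, 12.64 and 12.78 on the 3 arrays against 13.44 to 13.55 on the 9 mates. Its block difference was -0.77 (SE 0.06), but a second, dimmer probe of the gene gave 0.36.

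**Figure D5:**
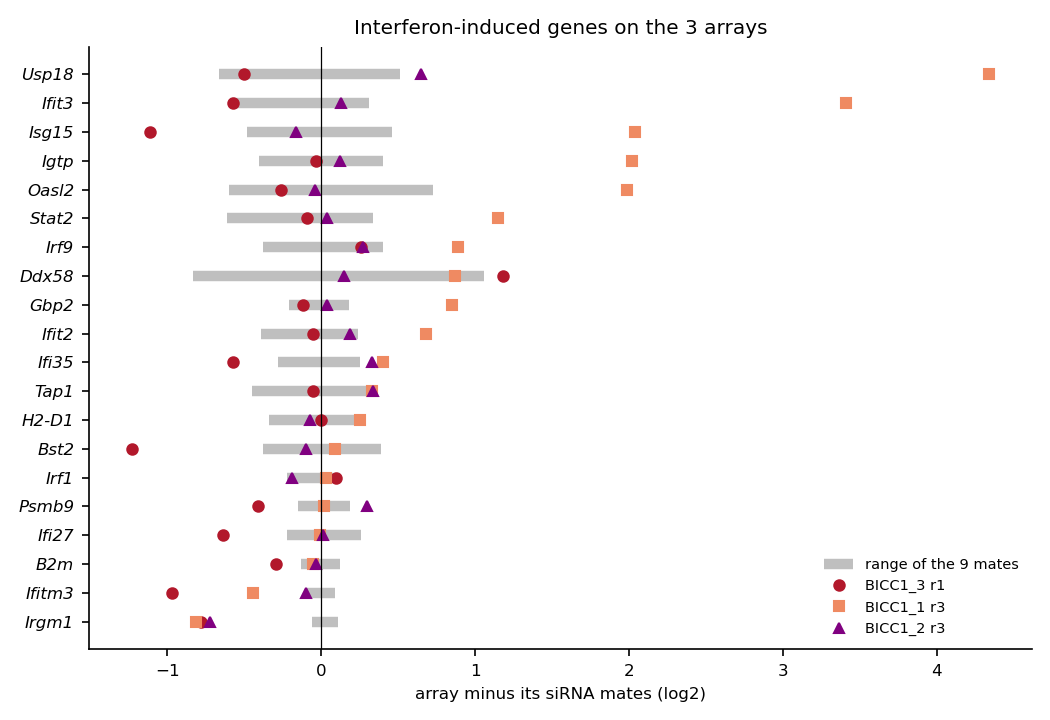
Deviation from the siRNA mates, in log2, of 20 interferon-induced genes on BICC1_3 replicate 1 (red circles), BICC1_1 replicate 3 (orange squares) and BICC1_2 replicate 3 (purple triangles), with the range of the 9 mates in grey, each set against its other 2 mates. Usp18 reaches 4.34 and Ifit3 3.41 on BICC1_1 replicate 3, where BICC1_3 replicate 1 has -0.50 and -0.57.

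By class median, the order of the 3 arrays was the same for the low classes but varied among the others. In all 7 low classes BICC1_3 replicate 1 was lowest, BICC1_1 replicate 3 next and BICC1_2 replicate 3 nearest its mates. With median scaling 9 classes were low, of which 7 kept this order, and with the replicate number as a block 5 of 8 did. Among the 5 high classes the mirrored order held for 1, sterol synthesis, where the last 2 arrays both rounded to 0.11. BICC1_1 replicate 3 was the highest array for the SR and hnRNP proteins, the matrix genes and the p53 targets, and the lowest of the 3 for the ubiquitin ligases. The gaps behind these ranks were small, at 0.05, 0.09, 0.03 and 0.02 log2 for these classes in turn. The standard deviation of the class median over the mates was 0.04, 0.05, 0.04 and 0.02. A different order in the high classes is therefore not established. Gene by gene, 541 of the 840 low genes (64.4%) followed the order of the low classes and 139 (16.5%) had the first 2 arrays exchanged. Of the 619 high genes, 358 (57.8%) had the mirrored order and 152 (24.6%) had BICC1_1 replicate 3 highest and BICC1_2 replicate 3 nearest. BICC1_2 replicate 3 was nearest its mates for 81.0% of the low and 82.4% of the high genes. BICC1_3 replicate 1 was farthest for 69.9% of the low and 62.7% of the high genes, and BICC1_1 replicate 3 for 25.6% and 33.3%.

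Brightness and cell markers moved with the arrays as follows. The median block difference ran from -0.03 to 0.03 over 5 ranges of mean intensity, but the share of low genes was 3.87% in the dimmest and 23.7% in the brightest, and that of high genes 3.39% and 11.1%. Osteoblast markers had probes for 18 genes, of which 9 were detected on all 12 siRNA arrays, Alpl and Sp7 among them, and 6 on none, Bglap (osteocalcin) and Dmp1 among them. Their mean level was 8.38, 8.42 and 8.62 log2 on the 3 arrays, against 8.56 to 8.78 on the mates. Mean levels of markers here are set against the mates of all siRNAs together. As deviations from mates of the same siRNA, the osteoblast medians were -0.24, -0.10 and -0.19, against -0.14 to 0.07 on the mates. By that measure BICC1_1 replicate 3 lay within the mates and BICC1_2 replicate 3 below them. Macrophage markers were present too, with 15 of 18 detected on all 12 arrays and Itgam and Ptprc on none. Their mean level was 8.20 log2 on BICC1_3 replicate 1, below the 8.46 to 8.84 of the mates, and 8.89 and 8.64 on BICC1_1 replicate 3 and BICC1_2 replicate 3. Tyrobp, a signalling adaptor of myeloid cells, had a block difference of -0.91 (SE 0.18) and was low, whereas Lyz2, their lysozyme, had 0.63 (SE 0.10) and was high, with 0.24 by a second probe. Without BICC1_3 replicate 1 Tyrobp stood at -0.51. Muscle markers had 2 of 15 detected on all 12 arrays and 5 on none, Myod1, Ckm and Ttn among them. The mean levels of the measured ones were 6.03, 6.30 and 7.60 against 6.33 to 7.75 on the mates. As deviations from mates of the same siRNA, their medians were -0.71, -0.39 and 0.12, against -0.53 to 0.56. Only BICC1_3 replicate 1 lay outside the mates by that measure. Endothelial markers had 4 of 10 detected on all 12 arrays (Egfl7, Eng, Esam and Ramp2) and 5 on none (Cdh5, Emcn, Kdr, Pecam1 and Tie1). Those measured were at 7.45 on BICC1_3 replicate 1, below the 7.72 to 8.0 of the mates, and at 7.80 and 7.93 on BICC1_1 replicate 3 and BICC1_2 replicate 3. With those 5 undetected, these values are not a level of endothelial cells. Chondrocyte markers had 3 of 11 detected on all 12 arrays and 6 on none, Acan and Comp among them. Those measured were at 7.3, 7.21 and 7.47, the last above the 7.09 to 7.3 of the mates. Osteoclast and adipocyte markers, with 4 of 11 and 5 of 9 detected on none, lay within the range of the mates on all 3 arrays. Of 6 red blood cell markers, 0 were detected on all 12. The part of brightness and of these markers in the class differences was not tested, and fewer cells of a type cannot be told apart from less RNA per cell in such cultures.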

How the data were processed

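RNA was hybridised to Illumina single-colour bead arrays. The authors deposited linear bead intensities without normalisation, per the file headers, and the submitters' processing notes name GenomeStudio. The deposited detection score is near 1 for bright probes although its heading calls it a p-value, so 1 minus the score served as the detection p. A second deposited table holds log2 values, whose transform is not given in the sources used here, and it served as an alternative.

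Intensities were corrected and quantile-normalised over all 16 arrays by the neqc function (offset 16; limma 3.58.1, R 4.3.3). Probes with a detection p under 0.05 on at least 4 arrays were kept (12802 of 25697), and the brightest probe stood for each gene, which left 9560 genes or unnamed probes, 8832 of them with a symbol from the platform annotation. The block difference and its SE came from limma (lmFit, eBayes) on the 12 siRNA arrays with the siRNA as a block (8 residual and 4.421 prior degrees of freedom). Its median SE was 0.0886 log2. The calculation was tested on simulated data. The number of arrays limits the precision.

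Named genes were Bicc1, the 12 lowest and 12 highest genes that met the low or high rule, the 2 members of each class farthest in the direction of its median and the 1 farthest against it, and in 2 classes the member nearest the median; the other genes named were chosen after their values were seen. Arrays, lists and members were chosen with earlier results of these data known, so no p-value was computed. Alternatives changed the normalisation, the filter, the probe rule, the block, the minimum size of a difference and the arrays used. A planned comparison by protein length was not run, since no protein table was used here.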

Additional observations from a re-analysis of the deposited data

Results flagged for a closer look

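A gap test (Dixon) was run within each of the 4 groups of arrays for the 42 class medians and 3 other measures (Bicc1, the median intensity and the number of detected probes). Of these 180 tests, of which chance marks about 1 in 20, 24 marked an array, and 20 of those concerned a picked array. In 10 of the 20 the class was one for which the arrays had been picked (ribosomal proteins, complexes I, III and IV, ATP synthase), where the test only restates the choice. BICC1_3 replicate 1 stood apart 14 times: in cytosolic ribosomal proteins (-0.74), complex I (-1.43), complexes III and IV (-1.40), ATP synthase (-1.17), mitochondrial ribosomal proteins (-0.63), mitochondrial import (-0.48), tRNA synthetases (0.23), snRNP and Sm-like proteins (-0.88), histones (-0.92), kinesins, myosins and dyneins (0.23), actin, SRF and YAP targets (0.24), large matrix genes (0.25), p53 targets (0.13) and Bicc1 (10.70 log2). BICC1_1 replicate 3 did so 5 times, in cytosolic ribosomal proteins (-0.42), complex I (-0.76), complexes III and IV (-0.94), mitochondrial ribosomal proteins (-0.22) and snRNP and Sm-like proteins (-0.43). BICC1_2 replicate 3 did so in complexes III and IV (-0.34) alone.

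Among the 13 other arrays the test marked 4 small values, BICC1_1 replicate 2 in citric acid cycle genes (-0.04), BICC1_2 replicate 2 in actin, SRF and YAP targets (-0.04), BICC1_3 replicate 2 in the CCT chaperonin and prefoldin genes (-0.09) and SC replicate 2 in mitochondrial ribosomal proteins (-0.03).

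In 4 classes 1 of the 3 arrays lay below all unpicked arrays and 1 above. The highest minus the lowest of the 3 was 0.28 log2 for peroxiredoxins, thioredoxins and NRF2 targets, 0.31 for tRNA synthetases, 0.22 for proteasome subunits and 0.82 for interferon-induced genes. Each siRNA holds 1 picked array, so these differences were not tested.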

How the results depend on the processing

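Of 26 alternatives, 23 gave values for classes and genes. In these, 0 of 2041 values of the 89 named genes that met a rule changed sign. For most of these values that was fixed in advance. Each picked array lay beyond all its mates for these genes, so leaving out 1 array could not change a sign. With no siRNA block or with SC arrays added, the block differences stayed those of the main fit. Of the values of the classes on one side, 275 of 276 kept their sign. The exception was p53 targets, at -0.01 with median scaling. Most of this was also fixed in advance, since these classes were taken for medians on one side on all 3 arrays. The count therefore says little about how firm the classes are. The counts depended on the scale. Low genes numbered 81 with the deposited log2 intensity and 501 with the authors' table, and high genes 350 with median scaling, 340 with the authors' table and 402 with no siRNA block. Minimum differences of 0.5, 1 and none gave 429, 94 and 1271 low and 85, 0 and 1284 high genes. Of the 840 low genes, 807 stayed low with median scaling, as did 322 of the 619 high ones. The ribosomal median of -0.41 became -0.66 with median scaling, -0.48 with cyclic loess, -0.45 with the deposited log2 intensity, -0.36 with the authors' table and -0.25 with no filter on dim probes. The complex I median of -0.78 became -0.94 with median scaling, -0.73 with the deposited log2 intensity, -0.59 with the authors' table and -0.74 with the mean of probes. The deposited log2 intensity, unscaled between arrays, left 0 classes below and 0 above all other arrays, hence 0 in the stated order. Classes above numbered 0 with median scaling and 3 with cyclic loess. The share of low genes in the stated order was 92.6% with the deposited log2 intensity and 80.2% with the authors' table, and that of high genes 22.9% with the deposited log2 intensity. The cause of these shifts was not tested.

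Leaving out each of the 12 arrays gave 822 to 1483 low genes, 572 to 1223 high genes, ribosomal medians of -0.59 to -0.22, complex I medians of -1.07 to -0.50, 6 to 10 classes below, all but at most 1 of them in the stated order, 2 to 10 classes above, 62.3% to 88.0% of low genes and 51.3% to 90.4% of high genes in the stated order. BICC1_2 replicate 3 gave the highest counts of genes when left out, 1483 and 1223, and 10 classes on each side; BICC1_2 replicate 1 gave 2 classes above. Orders with a picked array left out rest on the other 2.

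Of the 24 pairs of same-numbered arrays, 9 deviated together with an r over 0.1. Their r ran from -0.594 to 0.609, the highest being BICC1_1 replicate 3 with BICC1_2 replicate 3. Of the 72 pairs with different numbers, 22 had an r over 0.1, with a range of -0.508 to 0.705. The numbers were therefore not taken to pair the arrays. With the replicate block, low genes numbered 1368 and high genes 1155, the ribosomal and complex I medians were -0.52 and -0.93, and 38.4% of low and 24.4% of high genes kept the stated order, as did 5 of the 8 classes then below all other arrays. The planned protein length comparison was not run.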

Other observations

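Some classes not described above were high on BICC1_3 replicate 1 but overlapped the other arrays on BICC1_2 replicate 3. Kinesins, myosins and dyneins, the motor proteins, had medians of 0.23, 0.10 and -0.01 over 40 genes, in the order BICC1_3 replicate 1, BICC1_1 replicate 3 and BICC1_2 replicate 3, against -0.10 to 0.05 on the mates. Actin, SRF and YAP targets had 0.24, 0.05 and 0.02 over 18 genes, against -0.04 to 0.03. Translation initiation and elongation factors had 0.16, 0.10 and 0.00 over 47 genes, against -0.03 to 0.03 on the mates. Of them 4 were low and 3 high (8.51% and 6.38%), near the 8.79% and 6.47% of all genes. The folding machinery was split into subgroups after the values were seen. The 8 subunits of the CCT chaperonin, which folds actin and tubulin, had medians of 0.26, 0.30 and 0.14, against -0.09 to 0.13 on the mates. Their median block difference was 0.24, with Tcp1 at 0.46 (SE 0.07). The 4 prefoldin subunits, which deliver those substrates, had -0.54, -0.35 and 0.10, the last within the -0.14 to 0.14 of the mates. Their median block difference was -0.28, and only Pfdn2 was low, at -0.61 (SE 0.10). The subgroups thus did not differ in direction on BICC1_2 replicate 3.

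Among zinc finger genes named Zfp, 20 of 179 were high (11.2%, against 6.47% of all genes) and 7 low (3.91%, against 8.79%). Zfp738 had a block difference of -1.36 (SE 0.16), against a class median of 0.07. Endoplasmic reticulum stress and ATF4 target genes had 0.11, 0.13 and -0.01 over 23 genes, with Atf4 high at 0.50 (SE 0.08) and Nupr1 low at -0.70 (SE 0.14).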
